A study of Mus musculus with 6 samples.

Results

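The nuclear receptor superfamily was described here in mouse hepatocytes that had received Sox4. Its members were a given list of 47 gene symbols, looked up in the count table of 53599 genes, and all 47 were found there. Of these receptors, 40 had at least 1 read in some library, and 34 had enough reads to be tested, that is, they passed edgeR's filter for low counts (a minimum count of 10, scaled to library size, in at least 3 libraries, and 15 in all). Nuclear receptors are transcription factors, most of which bind DNA through a pair of zinc fingers and many of which are switched by a small ligand such as a steroid, a bile acid, a fatty acid or thyroid hormone. Many of them bind DNA as a heterodimer with a retinoid X receptor, and they recruit coactivators or corepressors depending on whether ligand is present. In the adult liver they control bile acid, lipid, glucose and drug metabolism, and HNF4A among them keeps hepatocytes differentiated.

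The comparison was between 3 libraries of hepatocytes given an empty vector (EV, labelled WT for genotype) and 3 given Sox4 (labelled Sox4 for genotype). It asks what forced Sox4 does to hepatocytes of mice given no toxin. The study reports that mice given Sox4 lost weight after the injection and later regained most of it. The EV animals received AAV8-TBG-Cre and the Sox4 animals AAV8-TBG-HA-Sox4-P2A-Cre, so both groups carried Cre driven by TBG, a promoter used for its activity in hepatocytes. Per the study's methods the animals were male Rosa-LSL-Cas9-EGFP mice on a C57BL/6J background, injected at 4 to 8 weeks of age, and the cells were taken by liberase digestion and Percoll enrichment 4 days after injection. No sort for infected cells is named for these libraries, the clock time of harvest is not given in the sources used here, and the study's figure legends give 3 animals for this comparison. The labels do not tie a library to an animal.

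Each library held between 15090629 and 16964860 counted reads. Sox4 itself had 2, 0 and 3 reads in the EV libraries and 21697, 15097 and 11816 reads in the Sox4 libraries, which matched the labels. Levels below are read counts per 1000000 reads of the library (CPM), with library sizes scaled by TMM, which sets the typical gene equal between libraries. The scaled library sizes were on average 1.48 times larger in Sox4 than in EV, so the choice of scaling mattered. Over the 12691 tested genes the log2 fold change (Sox4 minus EV) had a median of 0.04 under TMM and of 0.51 when libraries were scaled by size only. Where the direction of a receptor depends on that choice, it is said beside the value. Summed over 8 hepatocyte markers, of which Alb, Apoa1, Ass1, Tat and Serpina1c were lower in Sox4, the level ran from 124566 to 146701 CPM among EV libraries and from 85906 to 99578 CPM among Sox4 libraries. As a plain share of all reads these markers overlapped, with 10.7% to 12.3% in EV and 10.1% to 11.7% in Sox4, and Alb was not called lower with library size alone. The sum over 7 cholangiocyte markers lay between 30.5 and 32.6 CPM for EV and between 39.9 and 42.4 CPM for Sox4, 1 of 3 tested being higher (Epcam), with Krt19 and Krt7 at 0 reads in every EV library. Libraries of both groups held low levels of other liver cells, with 7 Kupffer cell markers summing to 9.31 to 23.2 CPM (EV) and 21.7 to 55.2 CPM (Sox4), 2 of 6 tested being higher (Cd5l and Marco), 7 endothelial markers to 16.9 to 28.6 and 15.5 to 37.4 CPM, 7 stellate cell markers to 8.54 to 44.9 and 78.9 to 136 CPM (1.46 to 7.40 and 6.36 to 28.2 CPM without Reln, which overlap), and 5 lymphocyte markers to 0.539 to 2.27 and 1.001 to 3.77 CPM. Among all tested genes 29.0% were called higher and 26.0% lower with TMM. Since these are bulk libraries, fewer cells of a type and less RNA per cell cannot be told apart.

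Most receptors that moved were lower after Sox4. By edgeR's quasi-likelihood test with Benjamini-Hochberg adjustment over all tested genes (threshold 0.05), 15 of the 34 tested receptors were lower and 3 were higher, and 16 did not pass. That is 44.1% of the tested receptors lower, against 26.0% of all tested genes, and 8.82% higher, against 29.0% of all tested genes. With library size alone the split was 8 lower (12.8% of all genes) and 7 higher (50.9% of all genes), and 8 of the lower and all 3 of the higher receptors were called with both scalings. The median log2 fold change of the tested receptors was -0.37 under TMM and 0.10 by library size, each about the same distance under the median of all genes. The CPM of 17 tested receptors did not overlap between the groups, 14 of them lower and 3 higher, where 63.0% of all tested genes did not overlap. Added up, the 47 receptors made up between 2643 and 2744 CPM for EV and between 1803 and 1946 CPM for Sox4, but as a plain share of all reads the groups overlapped, with 0.228% to 0.233% in EV and 0.212% to 0.229% in Sox4.

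**Figure D1:**
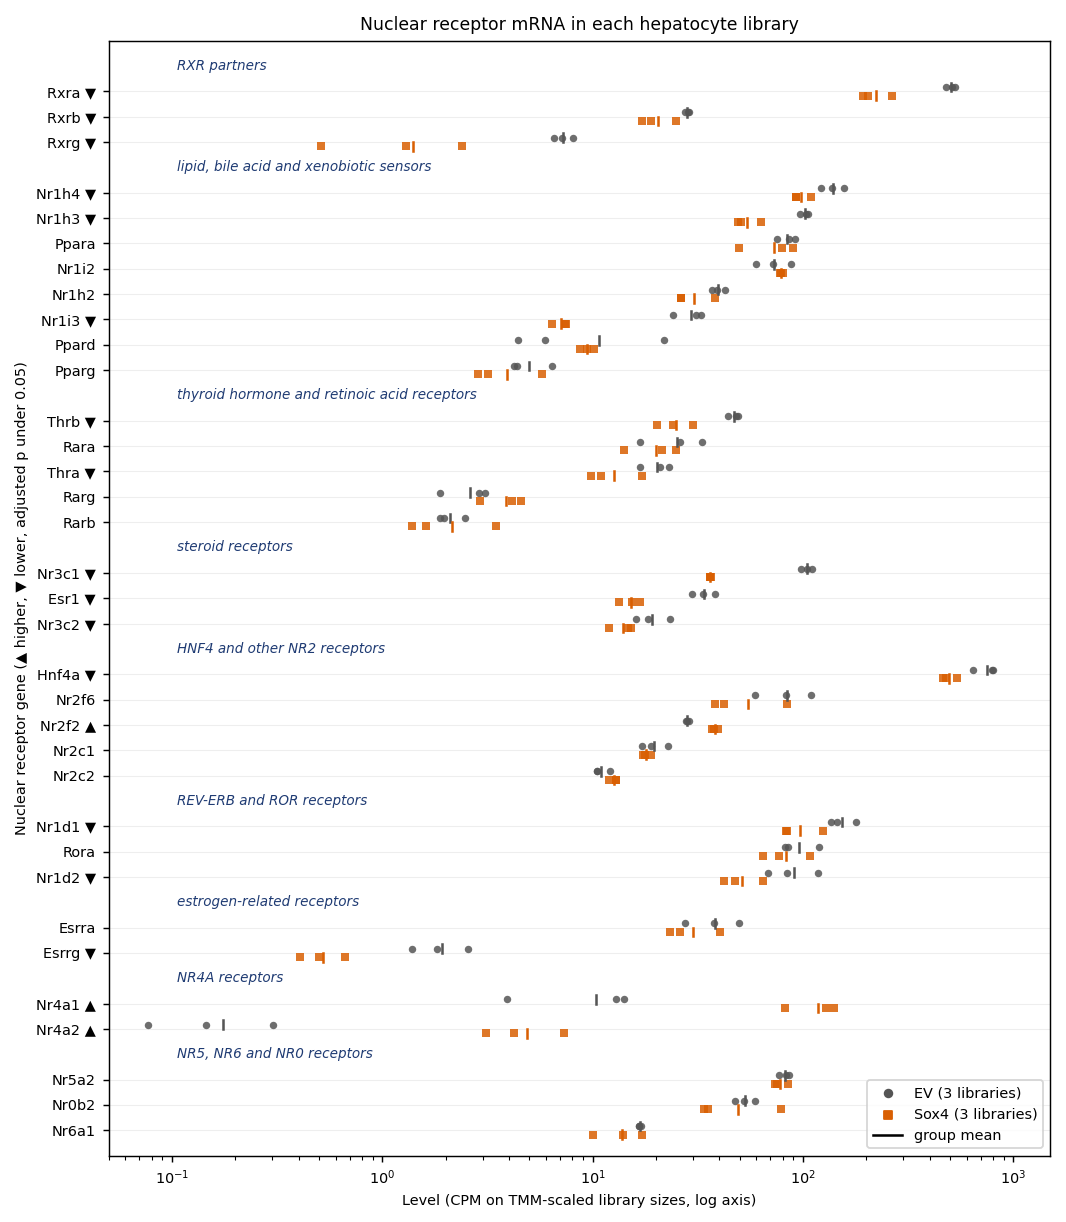
Level of the 34 tested receptors in each library, in CPM on TMM-scaled library sizes (log axis), grouped by role, with EV as grey circles, Sox4 as orange squares and short bars for the group means. The Sox4 points of Rxra and Hnf4a lie to the left of their EV points, while Nr4a1 and Nr4a2 are the receptors whose Sox4 points lie far to the right of the EV points.

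The retinoid X receptors, the shared partners of the lipid, bile acid, vitamin D, thyroid and retinoic acid receptors, were lower, though Rxrb showed no change with library size alone. Rxra, the main hepatic form, had 477, 509 and 530 CPM in EV and 205, 266 and 193 CPM in Sox4. Every Sox4 library was below every EV library, a 2.28-fold lower level (log2 fold change -1.19 ± 0.15 SE, edgeR adjusted p = 1.3e-04, n = 3 per group). Rxrg was at 8.08, 6.52 and 7.18 CPM in EV and at 1.301, 0.510 and 2.38 CPM in Sox4. The groups did not overlap (log2 fold change -2.37 ± 0.58 SE, edgeR adjusted p = 0.0013), but the Sox4 values rested on 26, 10 and 47 reads, and without Sox4 replicate 3 the log2 fold change was -2.99. Rxrb, the widely expressed form, had 28.4, 28.8 and 27.3 CPM in EV and 24.9, 19.0 and 17.2 CPM in Sox4. Its log2 fold change was -0.47 ± 0.16 SE with TMM (edgeR adjusted p = 0.026) and 0.00082 with library size alone, so its direction depended on the scaling, and it no longer passed without EV replicate 2 (adjusted p = 0.067), Sox4 replicate 2 (0.091) or Sox4 replicate 3 (0.085).

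Among the receptors for lipids, bile acids and foreign compounds, the oxysterol receptor Nr1h3 (LXR alpha), the bile acid receptor Nr1h4 (FXR) and the xenobiotic receptor Nr1i3 (CAR) were lower, and 5 others did not pass. Nr1i3 had 32.6, 30.9 and 24.2 CPM in EV and 7.36, 6.38 and 7.44 CPM in Sox4. This was the steepest fall of the group, 4.13-fold, with no overlap (log2 fold change -2.05 ± 0.15 SE, edgeR adjusted p = 7.6e-06). In the GENCODE M21 annotation, 74.9% of the exon bases of Nr1i3 lie opposite exons of Tomm40l, a gene of mitochondrial protein import. Whether the counting used strand, and how it treated reads that overlap more than 1 gene, is not given in the sources used here. Reads of the shared bases may thus have been left out of the count of Nr1i3 or mixed with those of Tomm40l. Tomm40l itself was at 7.16, 6.82 and 6.02 CPM in EV and 6.56, 5.41 and 5.01 CPM in Sox4, with a log2 fold change of -0.24 ± 0.13 SE (edgeR adjusted p = 0.34). Nr1i2 (PXR), which shares many ligands and target genes with CAR, stood at 59.8, 87.3 and 72.0 CPM in EV and 80.6, 77.8 and 78.5 CPM in Sox4, overlapping ranges (log2 fold change 0.11 ± 0.16 SE, edgeR adjusted p = 0.51). With library size alone Nr1i2 was called higher (0.58, adjusted p = 0.0039).

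Nr1h3 had 105, 96.6 and 103 CPM in EV and 63.2, 50.5 and 49.2 CPM in Sox4. The groups were well apart, 1.87-fold (log2 fold change -0.91 ± 0.12 SE, edgeR adjusted p = 2.1e-04). Its close relative Nr1h2 (LXR beta) had 38.9, 42.8 and 37.0 CPM in EV and 38.0, 26.4 and 26.3 CPM in Sox4. Sox4 replicate 1 lay within the EV range, and the log2 fold change of -0.39 ± 0.19 SE with TMM (0.08 with library size alone) did not pass (edgeR adjusted p = 0.062), though it did without Sox4 replicate 1 (adjusted p = 0.0021).

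Nr1h4, which senses bile acids and limits their synthesis, had 157, 122 and 138 CPM in EV and 92.1, 109 and 92.7 CPM in Sox4. All Sox4 values were below all EV values, by 1.42-fold on average (log2 fold change -0.50 ± 0.13 SE, edgeR adjusted p = 0.0088), but with library size alone the log2 fold change was -0.03 and the call was lost. Its promoter is printed because it held, among the receptors that were lower, both a SOX core (ACAAAG), the string that Sox proteins bind, and a nuclear receptor half-site (AGGTCA), each searched on both strands in windows of 300 bases (250 before a RefSeq start and 50 after). Such windows were at hand for 43 of the 47 receptors (not Thra, Nr3c1, Hnf4g and Nr5a1). The 250 bases before the start of Nr1h4, at chr10:89506659-89506908 on the minus strand of GRCm38.p6 (RefSeq), are given with the matched letters in capitals.
Nr1h4 promoter: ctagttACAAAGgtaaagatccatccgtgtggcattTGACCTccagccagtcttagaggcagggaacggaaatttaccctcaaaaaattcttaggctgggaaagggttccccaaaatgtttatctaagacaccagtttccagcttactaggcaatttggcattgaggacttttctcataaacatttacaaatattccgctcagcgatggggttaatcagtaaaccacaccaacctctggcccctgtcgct

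The capitals are ACAAAG at position -244 and TGACCT, the half-site read on the other strand, at position -214, counted from the start. In all 32851 promoter windows, 18.7% held a SOX core and 16.3% a half-site, and of the 27025 genes with a window 21.0% and 18.1% had them in at least 1. Of the 13 lower receptors with a window, 2 held a SOX core (Nr1h4 and Rxrb) and 5 a half-site (Nr1d2, Nr1h4, Rxra, Rxrg and Thrb). In the 3 higher receptors neither string was found. Of the 16 tested receptors that were not called, 3 held a SOX core and 5 a half-site. Of the 11 with a window that were not tested, 4 held a SOX core and 1 a half-site. An HNF4 element (CAAAGTCCA) was in 0.475% of all windows and in those of no receptor. These matches describe the letters of 1 window per listed start and are not evidence of binding.

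The fatty acid receptors did not pass the test with all libraries in. Ppara, which drives fatty acid oxidation in the fasting liver, had 86.0, 75.0 and 91.5 CPM in EV and 49.6, 79.0 and 90.0 CPM in Sox4, so 2 of 3 Sox4 libraries lay within the EV range (log2 fold change -0.21 ± 0.27 SE with TMM and 0.26 with library size alone, edgeR adjusted p = 0.41). Ppard was uneven in EV, with 283, 78 and 61 reads, against 202, 185 and 171 reads in Sox4. Its log2 fold change was -0.18 ± 0.70 SE with TMM and 0.28 with library size alone. Without EV replicate 1 it turned to 0.85 and Ppard was called higher (edgeR adjusted p = 0.013). Pparg, the adipogenic form, had 2.85 to 6.37 CPM over all 6 libraries (log2 fold change -0.34 ± 0.36 SE with TMM and 0.13 with library size alone). Nr1h5 had 2, 0 and 6 reads in Sox4 and no read in EV, and the vitamin D receptor Vdr had 1 read in a single Sox4 library. A count of 0 allows up to 3 reads, so neither could be compared at this depth.

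Both thyroid hormone receptors were lower and the retinoic acid receptors did not pass. Thrb, the main hepatic thyroid hormone receptor, had 49.2, 44.1 and 48.1 CPM in EV and 30.1, 20.1 and 24.1 CPM in Sox4. The groups did not overlap and the level was 1.90-fold lower (log2 fold change -0.93 ± 0.17 SE, edgeR adjusted p = 6.2e-04). Thra had 22.9, 20.9 and 16.8 CPM in EV and 17.1, 11.0 and 9.82 CPM in Sox4. Sox4 replicate 1 reached into the EV range, which made Thra the only called receptor with overlapping groups (log2 fold change -0.68 ± 0.28 SE, edgeR adjusted p = 0.026), and it did not pass without EV replicate 1 (adjusted p = 0.073), EV replicate 2 (0.063), Sox4 replicate 2 (0.092) or Sox4 replicate 3 (0.079), nor with library size alone (-0.21, adjusted p = 0.43). Rara was at 33.01, 26.0 and 16.8 CPM in EV and 21.3, 24.9 and 14.0 CPM in Sox4 (log2 fold change -0.33 ± 0.38 SE with TMM and 0.14 with library size alone, edgeR adjusted p = 0.33). Rarb stayed between 1.38 and 3.45 CPM in all libraries (edgeR adjusted p = 0.95), with 34.1% of its exon bases opposite those of Top2b, which was higher in Sox4 by 1.38 on the log2 scale. Rarg had 3.08, 2.88 and 1.89 CPM in EV and 4.56, 2.91 and 4.15 CPM in Sox4, and its log2 fold change of 0.57 ± 0.28 SE did not pass with TMM (edgeR adjusted p = 0.14) but did with library size alone (1.03, adjusted p = 0.013).

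All 3 tested steroid receptors were lower, though Nr3c2 lost its direction with library size alone. The glucocorticoid receptor Nr3c1 was the most even of them, with 104, 97.7 and 110 CPM in EV and 36.0, 36.5 and 36.2 CPM in Sox4. The gap was far wider than the spread in either group, 2.87-fold (log2 fold change -1.52 ± 0.05 SE, edgeR adjusted p = 3.2e-06). The estrogen receptor Esr1, which shapes sex differences and lipid handling in the liver, had 33.3, 38.3 and 29.7 CPM in EV and 13.3, 15.4 and 16.9 CPM in Sox4. It was 2.23-fold lower with no overlap (log2 fold change -1.15 ± 0.15 SE, edgeR adjusted p = 1.4e-04). The mineralocorticoid receptor Nr3c2 had 16.1, 18.3 and 23.4 CPM in EV and 15.2, 11.9 and 14.7 CPM in Sox4. Its groups came close, and the log2 fold change of -0.47 ± 0.19 SE (edgeR adjusted p = 0.044) became 0.0032 with library size alone and lost the call without EV replicate 2 (adjusted p = 0.070), EV replicate 3 (0.16), Sox4 replicate 2 (0.15) or Sox4 replicate 3 (0.066). Esr2 and the progesterone receptor Pgr had no read in any library.

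Hnf4a, which many liver genes need for their expression, had the highest level per exon length of all receptors, and it fell. It had 645, 804 and 788 CPM in EV and 537, 478 and 465 CPM in Sox4. The groups did not overlap, and the level was 1.51-fold lower (log2 fold change -0.60 ± 0.12 SE, edgeR adjusted p = 0.0058). With library size alone the log2 fold change was -0.12 and did not pass (adjusted p = 0.45). Its paralog Hnf4g had 3, 6 and 8 reads in EV and none in the Sox4 libraries, and it did not pass the filter. If 3 reads per library are taken for a count of 0, its mean CPM was 2.78-fold lower. That ratio allows for no counting error in the EV reads. In a fit with no filter on low counts it was called lower (edgeR adjusted p = 0.0015).

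Nr2f2 (COUP-TFII), a repressor that competes with HNF4A for DNA sites in many promoters, was the only receptor of its group to rise. It had 28.2, 28.7 and 27.8 CPM in EV and 36.8, 37.9 and 39.4 CPM in Sox4. The rise was small, 1.35-fold, but larger than the spread (log2 fold change 0.43 ± 0.03 SE, edgeR adjusted p = 0.0060), and it held with library size alone (0.90). Nr2f2 is also expressed in vascular and stellate cells. The stellate cell marker Hand2 had 0 reads in every EV library and 0, 2 and 3 reads in the Sox4 libraries, too few to test. In Sox4, 2 of 4 tested stellate cell markers were higher (Reln and Rgs5), with sums of 8.54 to 44.9 CPM (EV) and 78.9 to 136 CPM (Sox4). Without Reln those sums were 1.46 to 7.40 CPM (EV) and 6.36 to 28.2 CPM (Sox4) and overlapped. Of the endothelial markers, 2 of 7 were higher and 1 lower (Kdr and Clec4g against Stab2), with sums of 16.9 to 28.6 and 15.5 to 37.4 CPM. Among all tested genes 29.0% were higher and 26.0% lower. The part of vascular and stellate cells in the Nr2f2 value was not tested.

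The other receptors of that branch did not pass. Nr2f6, an orphan relative of Nr2f2, had 110, 83.0 and 59.1 CPM in EV and 84.2, 38.0 and 42.3 CPM in Sox4. The range within each group was wide and the log2 fold change of -0.61 ± 0.44 SE did not pass (edgeR adjusted p = 0.19), though it reached -1.07 without Sox4 replicate 1 (adjusted p = 0.012). In the annotation 54.4% of its exon bases lie opposite those of Ocel1. The testicular receptors Nr2c1 and Nr2c2 were steady, with 17.1 to 22.7 CPM and 10.4 to 13.0 CPM over all libraries. Their log2 fold changes were -0.12 ± 0.13 SE for Nr2c1 with TMM (0.34 with library size alone) and 0.20 ± 0.08 SE for Nr2c2 with TMM (0.67 with library size alone, which passed). Nr2f1 had 1 read in a single EV library, and Nr2e1 and the photoreceptor gene Nr2e3 had none.

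**Figure D2:**
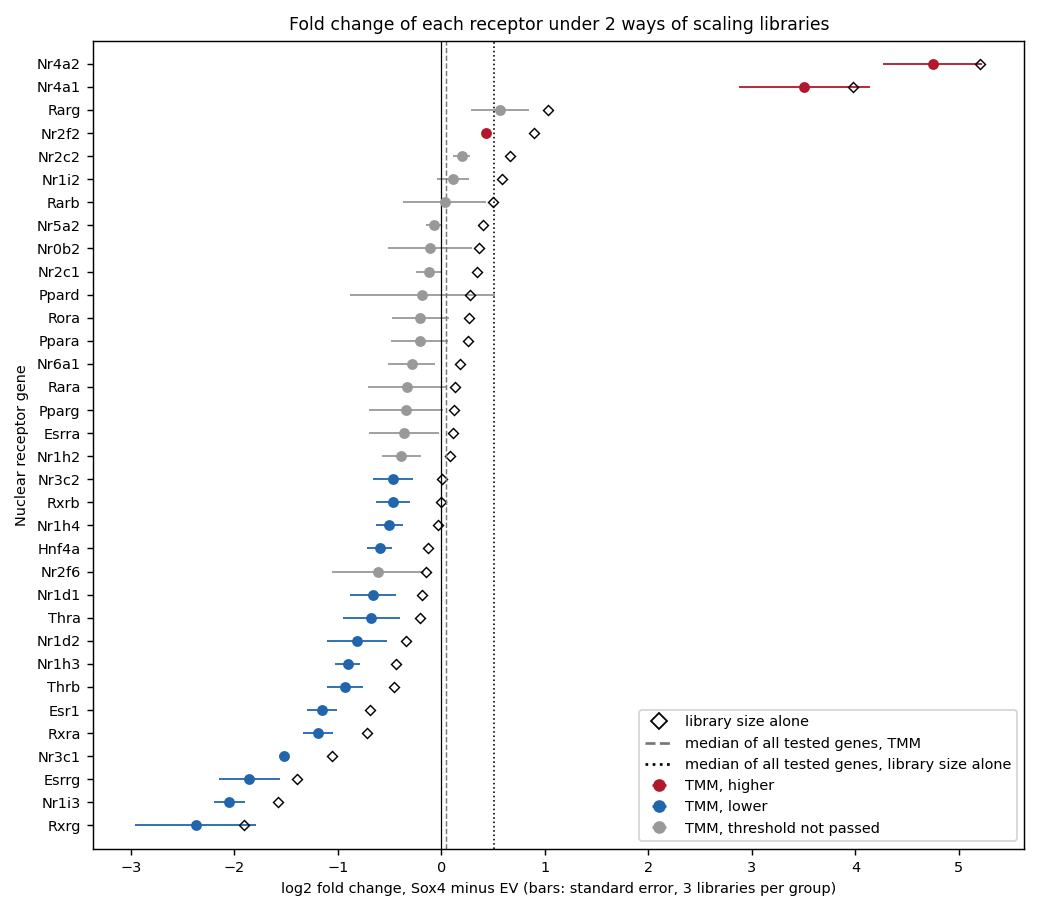
log2 fold change (Sox4 minus EV) of the 34 tested receptors with TMM scaling (filled circles with standard errors, red for higher, blue for lower and grey for not past the threshold) and with library size alone (open diamonds), with the median of all tested genes under each as a dashed (0.04) and a dotted (0.51) line. Library size alone shifts every receptor to the right by about the distance between those lines, which takes Rxrb and Nr3c2 to 0 and leaves Rxrg, Nr1i3, Esrrg, Nr3c1, Rxra, Esr1, Thrb and Nr1h3 lower.

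The heme receptors of the circadian clock were lower. Nr1d1 (REV-ERB alpha), which represses Bmal1 and many metabolic genes in a daily rhythm, had 137, 145 and 178 CPM in EV and 83.8, 124 and 83.4 CPM in Sox4. Sox4 replicate 2 came nearest to EV but stayed below it (log2 fold change -0.66 ± 0.22 SE, edgeR adjusted p = 0.010), and with library size alone the call was lost (-0.19, adjusted p = 0.37). Nr1d2 (REV-ERB beta) had 68.4, 84.3 and 118 CPM in EV and 42.0, 64.4 and 47.5 CPM in Sox4. The log2 fold change was -0.81 ± 0.29 SE (edgeR adjusted p = 0.013), and it did not pass without Sox4 replicate 1 (adjusted p = 0.060) or with library size alone (-0.34). Nr1d1 shares 8.55% of its exon bases with Thra on the opposite strand. If strand was not used, reads of the shared bases may have been left out or mixed between these receptors. Rora, which activates what the REV-ERB receptors repress, had 120, 84.6 and 81.7 CPM in EV and 64.8, 76.5 and 107 CPM in Sox4 and did not pass (log2 fold change -0.20 ± 0.28 SE with TMM and 0.27 with library size alone, edgeR adjusted p = 0.44). Rorb had no read.

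These genes cycle over the day, and clock genes around them were uneven. Of 15 clock genes tested, 3 were lower (Clock, Per2 and Bhlhe40) and the other 12 did not pass. Among all tested genes 26.0% were lower and 29.0% higher. The list had a median log2 fold change of -0.56 against 0.04 for all tested genes. With library size alone none was lower and Hlf and Per1 were higher, against 12.8% and 50.9% of all tested genes. The median was then -0.09, against 0.51 for all tested genes. The number lower was 5 by DESeq2 and with the replicate block, and 6 with no filter on low counts, without EV replicate 1 or without Sox4 replicate 2. Bhlhe40, a repressor in the clock, fell by 0.83 on the log2 scale (SE 0.34, edgeR adjusted p = 0.025), and Per2 by 0.91 (SE 0.27, adjusted p = 0.0070). The main activator Bmal1, listed as Arntl, had a log2 fold change of -0.83 ± 0.84 SE (edgeR adjusted p = 0.34), the output gene Dbp one of -1.10 ± 0.81 SE (adjusted p = 0.20) and Tef one of -0.56 ± 0.33 SE (adjusted p = 0.084). The standard errors of Arntl and Dbp were about as large as their changes. The time of day at which each animal was taken was not part of the labels, and its part in the REV-ERB values was not tested.

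The estrogen-related receptors, orphan receptors that regulate mitochondrial genes, differed in level. Esrrg had 2.54, 1.82 and 1.38 CPM in EV and 0.501, 0.663 and 0.405 CPM in Sox4. It was 3.62-fold lower with no overlap (log2 fold change -1.85 ± 0.29 SE, edgeR adjusted p = 0.0042), on 8 to 33 reads per library. Esrra had 49.6, 37.8 and 27.5 CPM in EV and 40.1, 23.4 and 26.0 CPM in Sox4, overlapping groups (log2 fold change -0.36 ± 0.34 SE with TMM and 0.11 with library size alone, edgeR adjusted p = 0.26). It passed as lower without Sox4 replicate 1 (-0.63, edgeR adjusted p = 0.047) and with the replicate block (-0.36, adjusted p = 0.040). Esrrb, known from stem cells, had 10, 3 and 2 reads in EV and 3, 0 and 4 in Sox4 and was not tested.

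Of the NR4A receptors, Nr4a1 and Nr4a2 rose and Nr4a3 was too rare to test. They are immediate early genes, transcribed within minutes of many signals, and their products need no ligand. Only their mRNA was measured here. Nr4a1 had 14.2, 13.0 and 3.92 CPM in EV and 141, 82.3 and 129 CPM in Sox4. The lowest Sox4 library was far above the highest EV library, and the level was 11.4-fold higher (log2 fold change 3.51 ± 0.64 SE, edgeR adjusted p = 0.0013). Nr4a2 had 1, 4 and 2 reads in EV and 62, 83 and 145 reads in Sox4, that is 0.0770 to 0.303 CPM against 3.10 to 7.34 CPM. The fitted log2 fold change was 4.75 (edgeR adjusted p = 7.5e-05). The SE of 0.48 came from log2 CPM with a prior count of 2, which damps the spread of such low counts, and not from the fit. From 7 against 290 pooled reads the ratio was 27.9, with an exact 95% counting interval of 13.4 to 70.0 that covers counting error only. Without EV replicate 2 the log2 fold change was 5.35. Nr4a3 had 0, 1 and 0 reads in EV and 1, 10 and 12 reads in Sox4, too few to pass the filter, with Sox4 replicate 1 at the level of EV. With no filter on low counts it was called higher (edgeR adjusted p = 0.020).

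The promoters of the 3 NR4A genes are printed because all of them hold several copies of the half-site TGACG of the cyclic AMP response element, a string through which CREB and related factors act. The 250 bases before the RefSeq start are at chr15:101266596-101266845 on the plus strand for Nr4a1, at chr2:57124004-57124253 on the minus strand for Nr4a2 and at chr4:48045055-48045304 on the plus strand for Nr4a3, all in GRCm38.p6. Capitals mark TGACG, or CGTCA where it is read on the other strand.
Nr4a1 promoter: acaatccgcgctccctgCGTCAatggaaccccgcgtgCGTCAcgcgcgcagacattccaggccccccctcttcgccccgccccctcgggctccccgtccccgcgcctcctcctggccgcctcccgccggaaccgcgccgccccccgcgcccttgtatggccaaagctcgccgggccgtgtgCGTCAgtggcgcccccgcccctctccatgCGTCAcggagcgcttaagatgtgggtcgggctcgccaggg
Nr4a2 promoter: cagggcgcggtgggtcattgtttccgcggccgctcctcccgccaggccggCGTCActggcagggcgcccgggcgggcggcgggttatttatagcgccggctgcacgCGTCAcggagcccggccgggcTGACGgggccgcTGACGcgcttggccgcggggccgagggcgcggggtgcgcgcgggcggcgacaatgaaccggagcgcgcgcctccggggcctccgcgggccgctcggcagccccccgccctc
Nr4a3 promoter: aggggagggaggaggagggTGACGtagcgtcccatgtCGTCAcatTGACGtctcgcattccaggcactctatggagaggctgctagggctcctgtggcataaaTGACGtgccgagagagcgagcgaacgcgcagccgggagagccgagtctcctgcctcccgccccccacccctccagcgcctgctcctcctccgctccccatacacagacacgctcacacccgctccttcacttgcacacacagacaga

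Each window held 4 copies, at positions -233, -213, -69 and -40 in Nr4a1, at -200, -144, -123 and -111 in Nr4a2 and at -231, -213, -205 and -147 in Nr4a3. At least 1 copy was in 20.8% of all windows, and 4 or more were in 76 of 32851, or 0.231%. The count of 4 was chosen after these windows were seen. Among the 43 receptors with a window, 15 held at least 1 copy of TGACG, where 23.0% of all genes did. They were 2 of 13 lower, 2 of 3 higher, 7 of 16 not called and 4 of 11 not tested. The whole palindrome TGACGTCA, present in 1.79% of all windows, was in none of the 3 NR4A genes. Nr6a1, which was not called, and Nr2e1, which had no read, held it. Nr2f2, the other receptor that rose, had no TGACG in its windows.

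Other immediate early genes gave a mixed picture. Of 10 tested, 5 rose (Fos, Fosb, Egr1, Atf3 and Btg2), where 29.0% of all tested genes were higher. The other 5 did not pass (Jun, Junb, Ier2, Dusp1 and Zfp36). With library size alone 7 rose, where 50.9% of all tested genes were higher. With the replicate block, without EV replicate 3 or without Sox4 replicate 1 only 3 rose. On the log2 scale the list had a median of 0.60, against 0.04 for all tested genes. Fosb and Atf3 rose most, by 4.47 ± 0.45 SE and 3.87 ± 0.58 SE on the log2 scale (edgeR adjusted p = 1.1e-04 and 4.1e-04). Btg2, an antiproliferative gene, rose by 0.70 ± 0.31 SE (edgeR adjusted p = 0.033). The 2 fold changes nearest to those of Nr4a1 and Nr4a2 thus belonged to genes that were also rare in EV, at 4.30 and 6.90 CPM. Zfp36, which destabilizes AU-rich mRNAs, had a log2 fold change of -0.44 ± 0.38 SE with TMM and 0.03 with library size alone (edgeR adjusted p = 0.23).

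The remaining receptors did not pass with TMM. Nr5a2, which works with FXR and SHP on bile acid synthesis, was even, with 82.6, 85.4 and 77.2 CPM in EV and 73.9, 75.3 and 84.4 CPM in Sox4. Its log2 fold change was -0.07 ± 0.07 SE with TMM (edgeR adjusted p = 0.60) and 0.40 with library size alone, which passed. Nr0b2 (SHP), a receptor without a DNA-binding domain that bile acids induce through FXR, had 52.5, 59.1 and 47.3 CPM in EV and 78.3, 33.7 and 35.4 CPM in Sox4. One Sox4 library lay above and the others below the whole EV range (log2 fold change -0.11 ± 0.40 SE with TMM and 0.36 with library size alone, edgeR adjusted p = 0.81). Without that library, Sox4 replicate 1, Nr0b2 was called lower (-0.62, adjusted p = 0.0019). Nr6a1, a germ cell nuclear factor, had 16.9, 16.7 and 16.5 CPM in EV and 13.9, 17.2 and 10.02 CPM in Sox4 (log2 fold change -0.29 ± 0.23 SE with TMM and 0.18 with library size alone). Nr5a1 and Nr0b1, receptors of steroid-making tissue, had no read in any library.

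Ratios between receptors of the same library do not depend on how libraries are scaled. Of 13 pairs of receptors, most of them close relatives, 12 could be tested, and the groups did not overlap in 4. The ratio of Nr1i3 to Nr1i2 changed most, with log2 values of -0.87, -1.50 and -1.57 in EV and -3.45, -3.60 and -3.40 in Sox4. CAR thus went from 25.1% to 35.3% of the summed CAR and PXR reads in EV to 7.57% to 8.65% in Sox4. For LXR, the log2 ratio of Nr1h3 to Nr1h2 was 1.44, 1.17 and 1.48 in EV and 0.73, 0.94 and 0.91 in Sox4. The log2 ratio of Rxra to Rxrb was 4.07, 4.14 and 4.27 in EV and 3.04, 3.80 and 3.49 in Sox4. Rxra still made 89.1% to 93.3% of their summed reads in Sox4. The log2 ratio of Esrra to Esrrg moved the other way, from 4.27, 4.35 and 4.28 in EV to 6.25, 5.09 and 5.92 in Sox4. Each of these 4 reached an exact two-sided permutation p of 0.1, the smallest that 3 against 3 libraries allow (0.30 after adjustment over the pairs). The mean differences (Sox4 minus EV, log2) were -2.17 ± 0.23 SE for Nr1i3 to Nr1i2, -0.51 ± 0.11 SE for Nr1h3 to Nr1h2, -0.72 ± 0.23 SE for Rxra to Rxrb and 1.45 ± 0.35 SE for Esrra to Esrrg. Hnf4a to Hnf4g was not tested, since Hnf4g had no read in Sox4.

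The other 8 pairs overlapped. Thra to Thrb (difference 0.24 ± 0.21 SE), Nr1d1 to Nr1d2 (0.13 ± 0.13 SE), Nr1h4 to Nr0b2 (-0.28 ± 0.48 SE), Ppara to Ppard (-0.42 ± 0.78 SE), Ppara to Pparg (0.14 ± 0.34 SE), Rara to Rarb (-0.23 ± 0.49 SE), Nr2c1 to Nr2c2 (-0.31 ± 0.19 SE) and Nr2f6 to Nr2f2 (-1.09 ± 0.46 SE) had exact permutation p-values between 0.2 and 0.7. Both thyroid hormone receptors were lower, and both REV-ERB receptors, but their ratios overlapped between the groups.

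**Figure D3:**
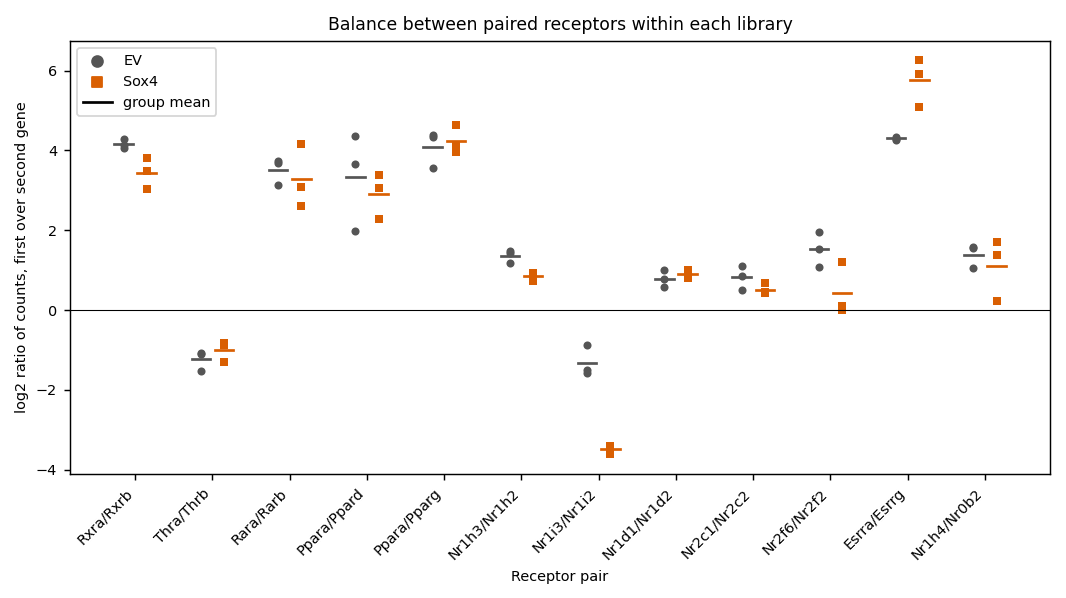
log2 ratio of the reads of paired receptors within each library (first gene over second), with EV as grey circles, Sox4 as orange squares and bars for the group means. The Sox4 points of Nr1i3/Nr1i2 lie between -3.60 and -3.40, below all EV points, and those of Esrra/Esrrg lie above them.

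Levels can be set side by side between genes, in a rough way, once they are divided by exon length (CPM per kb, from GENCODE M21 exon models). The lengths take the exons of all transcripts together, and the annotation behind the counts is not given in the sources used here. For Nr1i3, 74.9% of that length lies opposite exons of Tomm40l, and for Nr2f6 54.4% lies opposite those of Ocel1. Reads of those parts may be missing or mixed, which would shift the level and rank of these receptors. Hnf4a was first in EV with 154 ± 18.2 CPM per kb (SD, n = 3), clear of Rxra at 92.6 ± 4.84, which was clear of the next. Nr1h4 (60.3 ± 7.60), Nr1d1 (49.7 ± 7.05), Nr0b2 (46.8 ± 5.22) and Nr1h3 (40.5 ± 1.82) followed, and neighbours among Nr1h4, Nr1d1, Nr0b2 and Nr1h3 overlapped in their values. In Sox4 the order was Hnf4a at 102 ± 7.94 CPM per kb, Nr0b2 at 43.4 ± 22.3, Nr1h4 at 42.6 ± 4.29 and Rxra at 40.5 ± 7.13. Nr4a1 went from rank 25 in EV (2.95 ± 1.60 CPM per kb) to rank 5 in Sox4 (33.4 ± 8.81), Nr1i3 from rank 17 to 24 and Rxrg from rank 23 to 32. Hnf4a thus stayed first in both groups. The mean of Rxra came after those of Nr0b2 and Nr1h4 in Sox4, but its values overlapped theirs. Nr0b2 had 69.2, 29.8 and 31.3 CPM per kb in the Sox4 libraries and Rxra had 37.5, 48.7 and 35.4. Only in Sox4 replicate 1 was Nr0b2 above Rxra.

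Receptors act through coregulators, and these moved in part. The counts of this and the following lists stand against 29.0% higher and 26.0% lower among all tested genes with TMM, and 50.9% and 12.8% with library size alone, and nothing particular to a list is read from them. Of 13 coactivators, 3 were higher (Prmt1, Ep300 and Med1) and 5 lower (Ncoa1, Ncoa3, Ncoa4, Ncoa6 and Kat2b) with TMM, against 7 higher and 1 lower with library size alone and 5 higher with upper quartile scaling or a mean count of at least 50. The acetyltransferase Kat2b had a mean of 104 CPM in EV and 70.9 CPM in Sox4 (log2 fold change -0.55 ± 0.15 SE, edgeR adjusted p = 0.0067), and Ncoa4 one of 108 and 65.5 CPM (-0.72 ± 0.06 SE, adjusted p = 2.7e-04). Of 8 corepressors, 4 were higher (Hdac3, Tbl1x, Nrip1 and Lcor) and 4 did not pass, against 7 higher with library size alone. The scaffold Ncor1, which holds a repressor complex on unliganded receptors, had a log2 fold change of 0.15 ± 0.07 SE (edgeR adjusted p = 0.27) and passed as higher with library size alone, and Tbl1x, a subunit of the same complex, rose by 0.48 ± 0.05 SE (adjusted p = 0.0028). Medians over the lists were -0.15 for coactivators and 0.31 for corepressors, on either side of the 0.04 of all tested genes.

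Known target genes of the receptors moved in both directions within most lists. Of 13 PPARA targets, 4 rose (Cpt1a, Fgf21, Plin2 and Acot1) and 2 fell (Fabp1 and Creb3l3), against 5 and 1 with library size alone, and the median was 0.16. By limma-voom 2 were higher, and without Sox4 replicate 3 as many as 5 were lower. Plin2, a coat protein of lipid droplets, went from a mean of 335 CPM in EV to 1191 CPM in Sox4 (log2 fold change 1.83 ± 0.41 SE, edgeR adjusted p = 9.6e-04). Cpt1a, which admits fatty acids to mitochondria, rose by 0.95 ± 0.44 SE (adjusted p = 0.038), but its groups overlapped. It had 319, 380 and 437 CPM in EV and 393, 725 and 1071 CPM in Sox4, so Sox4 replicate 1 lay within the EV range. Of 10 LXR-induced genes, 3 rose (Abca1, Abcg1 and Lpl) and 4 fell (Srebf1, Lpcat3, Scd1 and Pltp), against 5 and 4 with library size alone, and without EV replicate 3 only 1 was higher. Scd1, the fatty acid desaturase, fell by 3.97 ± 0.52 SE on the log2 scale (edgeR adjusted p = 1.9e-04), and the cholesterol exporter Abca1 rose by 0.39 ± 0.12 SE (adjusted p = 0.032). The list median was 0.01, with large changes on both sides of it.

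Of 11 targets of CAR and PXR, 6 rose (Cyp2b10, Cyp2c55, Abcc2, Gadd45b, Slco1a4 and Por) and 4 fell (Cyp3a11, Ces2a, Abcc3 and Ugt1a1), against 6 and 2 with library size alone, and without Sox4 replicate 1 only 2 were lower. Cyp3a11, the main drug-oxidizing enzyme of the list, went from 4864 to 1719 CPM on average (log2 fold change -1.50 ± 0.31 SE, edgeR adjusted p = 7.3e-04), and the canalicular exporter Abcc2 from 974 to 1858 CPM (0.93 ± 0.12 SE, adjusted p = 5.8e-04). The 4.13-fold lower level of CAR thus stood beside higher levels of several of its targets, Cyp2b10 among them (2.51 ± 0.65 SE, adjusted p = 0.0093). Reads of the Cyp and Ugt1a genes may be split among near-identical relatives, since the handling of such reads is not given in the sources used here. Of 5 tested FXR-induced genes (of 7, Slc51a and Slc51b being too rare), Fgfr4 rose and Apoc2 and Slc27a5 fell, against 1 and 1 with library size alone. Only 1 was lower without EV replicate 1 or 3, Sox4 replicate 1 or 3, or with a mean count of at least 50. The bile salt export pump Abcb11 had a log2 fold change of -0.26 ± 0.13 SE with TMM and 0.21 with library size alone (edgeR adjusted p = 0.16), and Slc27a5, which activates bile acids for conjugation, fell by 3.55 ± 0.15 SE (adjusted p = 5.5e-07).

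Of 9 HNF4A targets, 4 fell (Apoc3, Otc, Cyp8b1 and F7) and 5 did not pass, against 1 higher and 4 lower with library size alone. Apob and Ttr, with the highest mean counts of them and also hepatocyte markers, had log2 fold changes of -0.20 ± 0.17 SE and -0.09 ± 0.13 SE with TMM (0.27 and 0.38 with library size alone, edgeR adjusted p = 0.38 and 0.66). Of 6 thyroid hormone targets, 4 fell (Thrsp, Dio1, Me1 and Klf9) and Hr rose, against 3 and 1 with library size alone. The call of Hr was lost by DESeq2, with no filter on low counts, with the replicate block and without any 1 library other than EV replicate 1. Me1, malic enzyme, fell by 0.74 ± 0.30 SE (edgeR adjusted p = 0.023) and Klf9 by 1.22 ± 0.19 SE (adjusted p = 1.6e-04), and Thrsp, the lipogenic gene named for its response to the hormone, fell by 5.73 ± 0.37 SE (adjusted p = 2.8e-06). The median log2 fold change was -0.23 for HNF4A targets and -0.98 for thyroid hormone targets.

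Of 9 glucocorticoid targets, Tat, Tsc22d3 and Sds fell and Sgk1 rose, against 3 lower and 2 higher with library size alone (2 higher also by DESeq2 and with the replicate block). The gluconeogenic enzyme Pck1 had a log2 fold change of -0.88 ± 0.47 SE, just outside the threshold (edgeR adjusted p = 0.051), and Tat, tyrosine aminotransferase, fell by 1.59 ± 0.32 SE (adjusted p = 5.1e-04). Fkbp5, another target, had -0.30 ± 0.16 SE with TMM and 0.17 with library size alone (adjusted p = 0.099). Of 4 tested retinoic acid targets (of 6, Stra6 and Crabp2 having no read), Dhrs3 fell and the others did not pass, against 1 higher (Tgm2) with library size alone. There was also 1 higher with no filter on low counts, without EV replicate 3 or without Sox4 replicate 3. Dhrs3, which reduces retinaldehyde, fell by 0.65 ± 0.27 SE (edgeR adjusted p = 0.025) but lost the call with library size alone (-0.19) and when EV replicate 1 or either of Sox4 replicates 2 and 3 was left out, and the transglutaminase Tgm2 had 0.45 ± 0.27 SE (adjusted p = 0.096). Genes named for having passed were named after their values were seen, and these lists overlap in part with each other and with the hepatocyte markers.

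**Figure D4:**
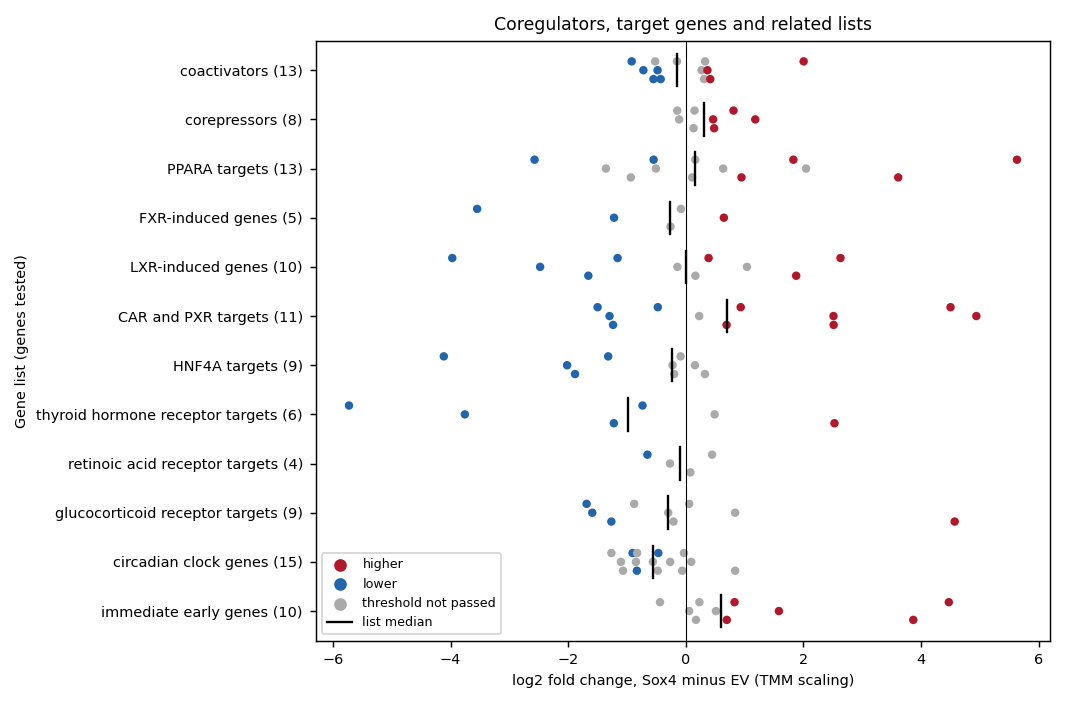
log2 fold change (Sox4 minus EV, TMM scaling) of each tested gene in 12 lists of coregulators, receptor targets, clock genes and immediate early genes, with red for higher, blue for lower, grey for not past the threshold and black bars for the list medians. Thyroid hormone targets have the lowest median (-0.98), CAR and PXR targets the highest (0.69), and most target lists hold both red and blue points.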

How the data were processed

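Bulk RNA-seq of 3 EV and 3 Sox4 hepatocyte libraries was used. Per the labels, the authors aligned reads to GRCm39 with STAR 2.7.10b and counted them per gene with featureCounts 2.0.1. The deposited raw count table was tested. The deposited table of normalized values (the counts divided by a constant per library, a signal named after DESeq2 in the labels) was used in 1 alternative. The annotation release, strand setting and handling of multimapping reads and of reads that overlap more than 1 gene are not given in the sources used here. Groups came from the labels. Counts were filtered (filterByExpr), scaled by TMM and tested with edgeR 4.0.16 (quasi-likelihood F test, R 4.3.3), with Benjamini-Hochberg adjustment over 12691 genes and a threshold of 0.05. Standard errors of fold changes came from log2 CPM with a prior count of 2 and not from the fit. For pair ratios 0.5 was added to both counts. A count of 0 allows 3 reads, or 0.150 to 0.231 CPM per library. Alternatives used DESeq2 1.42.0 and limma 3.58.1. The script was tested on simulated counts. Exon lengths and overlaps came from GENCODE M21 (GRCm38), used for lengths only, and promoters from RefSeq (GRCm38.p6). Receptors, lists and pairs were chosen with earlier results of these data known. Some genes of the pathway lists are not reported here and stay out of the lists' counts and medians. All receptors were to be named, with values in every library for called receptors without overlap and for the RXR, HNF4A, FXR, CAR, SHP and REV-ERB receptors; in pathway lists, the 2 tested genes with the highest mean count, plus clock and immediate early genes. Differences between libraries of a group exceeded sampling noise (chi-square per degree of freedom 18.7 to 71.7).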

Additional observations from a re-analysis of the deposited data

How the results depend on the processing

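Of 507 values of single receptors under 15 alternatives, 451 kept their direction and their side of the threshold and 27 changed sign. In all 21 calls were lost and 12 gained, 2 of each with a change of sign. The calls of 11 receptors held under every alternative that tested them (Rxra, Rxrg, Nr1h3, Nr1i3, Thrb, Esr1, Nr3c1, Esrrg, Nr4a1, Nr4a2 and Nr2f2), and those of 14 under all but library size alone (with Nr1h4, Hnf4a and Nr1d1). Library size alone gave 7 higher and 8 lower receptors in place of 3 and 15, and it turned the sign of 13, to log2 fold changes of 0.00082 for Rxrb, 0.0032 for Nr3c2, 0.082 for Nr1h2, 0.11 for Esrra, 0.13 for Pparg, 0.14 for Rara, 0.18 for Nr6a1, 0.26 for Ppara, 0.27 for Rora, 0.28 for Ppard, 0.34 for Nr2c1, 0.36 for Nr0b2 and 0.40 for Nr5a2, since it leaves the shift of all genes in place. Under the other alternatives the counts ran from 2 to 4 higher and from 12 to 18 lower. With no filter on low counts Nr4a3 joined the higher receptors and Hnf4g the lower ones. Leaving out 1 library at a time changed signs for Ppara (-0.38 to 0.00291), Ppard (-0.57 to 0.85), Nr1i2 (-0.028 to 0.25), Rarb (-0.49 to 0.27) and Nr0b2 (-0.62 to 0.11), and for the pair differences Rara to Rarb (-0.66 to 0.11), Ppara to Ppard (-1.10 to 0.092), Ppara to Pparg (-0.12 to 0.29) and Nr1h4 to Nr0b2 (-0.58 to 0.15), of which none had passed with all libraries in, while Ppard passed as higher without EV replicate 1 (adjusted p = 0.013) and Nr0b2 as lower without Sox4 replicate 1 (0.0019). Other tools also changed signs, limma-voom for Ppard (0.19) and Rarb (-0.082) and limma on the deposited normalized values for Ppard (0.17) and Rarb (-0.079), and the cause was not tested. The replicate numbers are shared between the groups, but the correlations of same-numbered libraries (0.27, -0.09 and 0.13) were not all over 0.1, so the numbers were taken as names only. With the replicate block 3 receptors were higher and 18 lower, Nr1h2 (adjusted p = 0.031), Nr2f6 (0.00606) and Esrra (0.040) now passing, and Ppard (0.11) and Rarb (-0.0549) changed sign. The main fit did not test the 13 receptors below the filter, of which 7 had no read in any library.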
